A study of Mus musculus with 9 samples.

Results

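The genes examined were 10 transcripts linked to the uptake of dead cells and to cross-presentation by type 1 conventional dendritic cells (cDC1): Clec9a, Wdfy4, Ppt1, Naaa, Ly75, Snx22, Cd8a, Cd24a, Gcsam and Rab43. They were chosen by gene symbol, each symbol matched 1 row of the count table of 55302 rows, and all 10 passed the filter that left 15417 genes for testing. The data were RNA-seq read counts from 9 libraries of dendritic cells sorted from the thymus of C57BL/6 mice at 8 weeks of age, with no treatment named. There were 3 populations, XCR1, SIRPa and CD301b, with 3 libraries in each (replicates 1, 2 and 3 of XCR1 and SIRPa, and replicates 1, 3 and 4 of CD301b). The design text speaks of 3 mice, but which library came from which animal, and whether animals were pooled, is not given, so p-values reflect only how far libraries of a population differ. The labels call the cell type thymic dendritic cells and the source thymocytes, with sorting gates not given in the sources used here.

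Cross-presentation is the display of peptides from engulfed material on MHC class I molecules, which lets a dendritic cell show antigens of other cells to CD8 T cells. cDC1, marked by the chemokine receptor XCR1 and dependent on the transcription factors IRF8 and BATF3, are the dendritic cells best known for it, while cDC2 carry SIRPα, and a subset of cDC2 carries the lectin CD301b, the product of Mgl2. In the thymus, where many thymocytes die, dendritic cells take up and present antigens of other thymic cells to developing T cells. The receptor CLEC9A binds actin filaments laid bare in dead cells. Among the other products, DEC-205 (Ly75) is an endocytic lectin, WDFY4 is a BEACH-domain protein that cDC1 need for cross-presentation of cell-associated antigen, and PPT1 and NAAA are enzymes of the lysosome.

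The promoters of the 3 genes whose level in both SIRPa and CD301b lay under 10% of that in XCR1 (Clec9a, Snx22 and Gcsam) are printed first, with that of Cd8a, the member with motif matches. The sequences are from RefSeq (GRCm38.p6), read 5′ to 3′ on the gene's strand, and end at the base before the annotated start. They lie at chr6:129408612-129408861 (Clec9a, plus strand), chr9:66069760-66070009 (Snx22, minus strand), chr16:45610190-45610379 (Gcsam, plus strand) and chr6:71373177-71373426 (Cd8a, plus strand). The Gcsam sequence has 190 bases because the annotation of GENCODE M21 places an earlier start inside the RefSeq window. Capitals mark matches to a motif.
Clec9a: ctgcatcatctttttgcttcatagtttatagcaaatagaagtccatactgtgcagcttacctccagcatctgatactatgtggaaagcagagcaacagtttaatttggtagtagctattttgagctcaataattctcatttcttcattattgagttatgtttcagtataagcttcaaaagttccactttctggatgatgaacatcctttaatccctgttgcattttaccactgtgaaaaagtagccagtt
Snx22: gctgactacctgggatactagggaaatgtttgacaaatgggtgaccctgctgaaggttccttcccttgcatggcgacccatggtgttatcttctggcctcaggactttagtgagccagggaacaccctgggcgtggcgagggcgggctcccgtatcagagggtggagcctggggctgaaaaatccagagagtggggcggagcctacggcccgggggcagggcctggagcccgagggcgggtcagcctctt
Gcsam: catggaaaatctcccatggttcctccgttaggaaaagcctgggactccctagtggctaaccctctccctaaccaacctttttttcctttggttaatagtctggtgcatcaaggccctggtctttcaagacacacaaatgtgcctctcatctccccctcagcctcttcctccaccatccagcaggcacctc
Cd8a: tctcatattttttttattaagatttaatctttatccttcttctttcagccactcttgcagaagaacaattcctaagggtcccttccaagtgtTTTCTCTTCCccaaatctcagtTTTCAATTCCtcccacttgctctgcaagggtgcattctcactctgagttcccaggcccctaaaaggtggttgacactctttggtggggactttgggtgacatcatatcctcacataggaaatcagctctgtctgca
In these sequences G and C made up 35.6% of bases for Clec9a, 62.0% for Snx22, 51.6% for Gcsam and 42.8% for Cd8a.

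The windows were searched on both strands for the core of the interferon-stimulated response element (GAAA, NN, GAAA), for the ETS-IRF composite element (GGAA, NN, GAAA), to which IRF8 can bind with a partner, and for TGANTCA, the AP-1 motif that BATF3 can bind with JUN. The first pair differ at 1 base, so no stretch can match both on the same strand, but they may overlap. Of the 10 genes, 9 had an entry in the RefSeq table (13 windows) and Cd24a did not. Each window was searched over its full 250 bases before the RefSeq start, also where GENCODE M21 places that stretch inside the transcript, as for the window of Wdfy4 and 2 of the 4 of Rab43. Among these windows 1 held a match, that of Cd8a, with TTTCTCTTCC and TTTCAATTCC, which read as the ETS-IRF element on the opposite strand and begin 158 and 136 bases before the start. Of all 32851 windows of 250 bases in the table, 2.98% held the response element core, 2.30% held the ETS-IRF element and 6.75% held TGANTCA. A window without a match says only that these letters are not within it.

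All 10 genes were higher in XCR1 than in SIRPa and than in CD301b, by edgeR's quasi-likelihood test with Benjamini-Hochberg adjustment over 15417 genes and a threshold of 0.05. Of all genes tested, 10.7% were higher in XCR1 than in SIRPa and 9.12% higher in XCR1 than in CD301b. The 10 genes are ones known from cDC1, so their direction is not an independent result about the sort. In neither comparison did the libraries of the groups overlap for any of the 10, where 18.1% and 15.4% of genes tested lay wholly higher in XCR1. The median log2 fold change of the 10 was 2.83 in both comparisons, against -0.06 over all genes for SIRPa and -0.05 for CD301b. The comparisons share libraries, so their values are set side by side and are not independent of each other. Between the SIRPα-carrying populations, 2 of the 10 were higher in CD301b (Wdfy4 and Naaa; 2.2% of all genes were), 4 were higher in SIRPa (Ppt1, Ly75, Snx22 and Cd24a; 2.08% of all genes were), and Clec9a, Cd8a, Gcsam and Rab43 did not pass. There, 4 of the 10 lay wholly higher in CD301b (10.7% of all genes), 5 wholly higher in SIRPa (11.4%), and Clec9a overlapped.

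**Figure D1:**
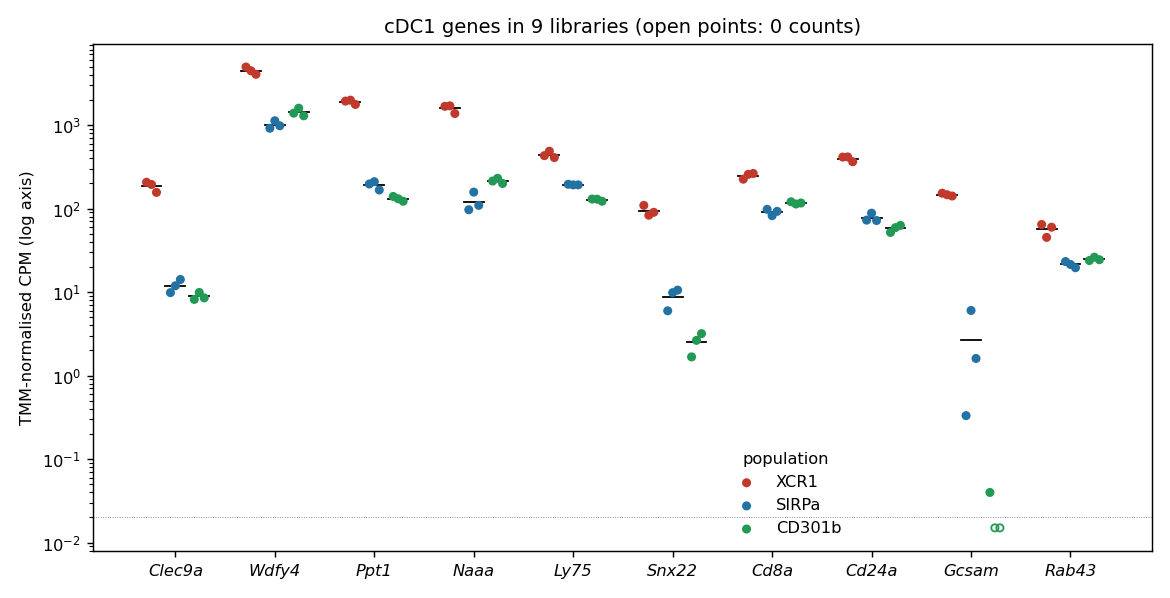
Level of the 10 genes in each library, in TMM-normalised CPM (counts scaled to library size) on a log axis; each point is a library, and a bar marks the mean of 3 libraries where none had 0 counts. XCR1 libraries lie above the others for every gene; Gcsam spans the widest range, from 141 CPM or more in XCR1 to 0 counts in 2 CD301b libraries (open points, drawn under the dotted line).

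The 9 libraries held 20246092 to 25438864 counts, and a count of 0 allows a level of up to 0.119 to 0.150 CPM depending on the library (3 counts, counting error only). Levels are given as TMM-normalised CPM, with SD and n = 3 per population. The populations carried the transcripts they are named for: Xcr1 was at 766 ± 96.7 CPM in XCR1 and 9.61 ± 5.19 in SIRPa. Sirpa stood at 12.5 ± 3.06 CPM in XCR1, 774 ± 58.6 in SIRPa and 646 ± 53.7 in CD301b, and Mgl2 at 624 ± 58.2 in CD301b and 23.2 ± 5.32 in SIRPa. Transcripts of 13 thymocyte genes summed to 179 to 781 CPM in XCR1, 355 to 641 in SIRPa and 247 to 607 in CD301b, and none of the 12 tested passed in any comparison. The highest thymocyte sum was that of XCR1 replicate 3, which was also the lowest XCR1 library for 7 of the 10 genes. How many of all genes were lowest there was not counted, and a link with the thymocyte sum was not tested. Libraries are of bulk cells, so a smaller share of cells with a transcript and less of it in each cell cannot be told apart.

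Clec9a (chromosome 6, 129408862 to 129424763, plus strand, mm10) encodes DNGR-1, the receptor for dead-cell actin. Its level was 206, 194 and 156 CPM in XCR1, 9.84, 11.9 and 14.1 CPM in SIRPa, and 8.16, 9.89 and 8.51 CPM in CD301b. The lowest XCR1 library was thus more than 10 times the highest of the others, while SIRPa and CD301b overlapped. The log2 fold change was 3.95 ± 0.17 (SE; adjusted p = 3.68e-13) for XCR1 against SIRPa and 4.39 ± 0.18 (adjusted p = 9.59e-14) against CD301b. Between CD301b and SIRPa it was -0.43 ± 0.16 (adjusted p = 0.190), which did not pass. Clec1b, a neighbouring lectin gene on the same strand, shares 184 of the 3293 exonic bases of Clec9a. It held 156, 234 and 55 counts over the libraries of XCR1, SIRPa and CD301b. Clec9a itself held 208, 271 and 300 counts in the SIRPa libraries and 205, 236 and 174 in those of CD301b. Plasmacytoid dendritic cells of the mouse also carry some CLEC9A; 7 of their genes summed to 79.1 to 120 CPM in XCR1, 272 to 304 in SIRPa and 216 to 256 in CD301b, lowest where Clec9a was highest but in the order of the Clec9a means between SIRPa and CD301b. None of the 7 passed between CD301b and SIRPa. There the means of Siglech (35.7 CPM in SIRPa, 40.9 in CD301b) and Ccr9 (37.9 and 54.2) went against the sum. The rest went with it, among them Lair1 (121 and 64.8). The part of plasmacytoid cells in the Clec9a levels was not tested.

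Ly75 (chromosome 2, 60292103 to 60383303, minus strand) encodes DEC-205, an endocytic receptor of cDC1 and of cortical thymic epithelium. It stood at 430, 486 and 408 CPM in XCR1, 195, 192 and 192 CPM in SIRPa, and 130, 129 and 122 CPM in CD301b. The 3 populations formed 3 separate steps, and the libraries of SIRPa were close together (SD 1.79 CPM). This gave a log2 fold change of 1.19 ± 0.10 (adjusted p = 9.77e-09) for XCR1 against SIRPa, 1.79 ± 0.10 (adjusted p = 2.02e-11) against CD301b and -0.60 ± 0.10 (adjusted p = 0.000764) for CD301b against SIRPa. SIRPa thus kept 43.8% of the XCR1 level, the highest share among the 10 genes in that population. Transcripts of 7 thymic epithelial genes summed to 15.6 to 26.4 CPM in XCR1, 26.3 to 37.9 in SIRPa and 20.4 to 24.6 in CD301b, and the defining factor Foxn1 was at 0 counts in 2 XCR1 and 2 CD301b libraries. The part of these cells in the Ly75 difference between SIRPa and CD301b was not tested.

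Wdfy4 (chromosome 14, 32959547 to 33185508, minus strand, 63 exon blocks) encodes the BEACH-domain protein named above. Its level was 4952, 4467 and 4051 CPM in XCR1, 915, 1126 and 980 CPM in SIRPa, and 1388, 1592 and 1290 CPM in CD301b. CD301b lay between the other populations, with no overlap. In log2 terms the difference was 2.16 ± 0.11 (adjusted p = 2.91e-12) for XCR1 against SIRPa, 1.66 ± 0.11 (adjusted p = 1.47e-10) against CD301b, and 0.50 ± 0.10 (adjusted p = 0.00626) for CD301b against SIRPa. Without SIRPa replicate 1 the last value was 0.43 (adjusted p = 0.0631) and no longer passed.

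Rab43 (chromosome 6, 87788853 to 87812164, minus strand), a small GTPase of vesicle traffic linked to cross-presentation in cDC1, had the lowest level per kb of exon among the 10 in XCR1. It stood at 64.4, 45.2 and 59.8 CPM in XCR1, 23.2, 21.4 and 19.6 CPM in SIRPa, and 23.9, 26.2 and 24.4 CPM in CD301b. The log2 fold change was 1.40 ± 0.18 (adjusted p = 5.11e-06) for XCR1 against SIRPa, 1.19 ± 0.18 (adjusted p = 4.06e-05) against CD301b and 0.21 ± 0.18 (adjusted p = 0.711) for CD301b against SIRPa. The gene model Gm45140 on the same strand shares 75.4% of the exonic bases of Rab43 and held 3, 9 and 21 counts in XCR1, SIRPa and CD301b. Reads on shared bases may not have been counted to either gene, so the Rab43 level and its place per kb are uncertain.

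Snx22 (chromosome 9, 66065176 to 66069719, minus strand) encodes a sorting nexin, one of the proteins that bind phosphoinositides of endosomal membranes. Its level was 109, 83.2 and 90.1 CPM in XCR1, 5.96, 9.84 and 10.6 CPM in SIRPa, and 1.67, 2.64 and 3.18 CPM in CD301b. The order XCR1, SIRPa, CD301b held without overlap. This gave a log2 fold change of 3.42 ± 0.24 (adjusted p = 7.66e-10) for XCR1 against SIRPa, 5.24 ± 0.27 (adjusted p = 4.80e-12) against CD301b and -1.82 ± 0.25 (adjusted p = 0.000125) for CD301b against SIRPa. Exons of Ppib, a gene on the opposite strand with 18632, 14424 and 18893 counts in XCR1, SIRPa and CD301b, cover 28.5% of the exonic bases of Snx22. With the strand setting of the counting not given in the sources used here, Snx22 values are uncertain; the counts of Ppib did not follow its order.

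Ppt1 (chromosome 4, 122836242 to 122859175, plus strand) encodes the lysosomal thioesterase that removes palmitate from proteins. It stood at 1936, 1986 and 1764 CPM in XCR1, 197, 210 and 167 CPM in SIRPa, and 140, 131 and 122 CPM in CD301b. The difference between XCR1 and SIRPa was 9.92-fold, and SIRPa and CD301b did not overlap. In log2 terms the difference was 3.31 ± 0.11 (adjusted p = 8.63e-15) for XCR1 against SIRPa, 3.85 ± 0.11 (adjusted p = 1.53e-15) against CD301b and -0.54 ± 0.10 (adjusted p = 0.00228) for CD301b against SIRPa. Cap1, a gene on the opposite strand, shares 129 of the 3674 exonic bases of Ppt1. It held 35587, 32938 and 35682 counts in XCR1, SIRPa and CD301b, and its part in the Ppt1 levels was not tested.

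Naaa (chromosome 5, 92257659 to 92278170, minus strand), which encodes the acid amidase that breaks down N-acylethanolamine lipids in lysosomes, took the other order among the lower populations. It stood at 1676, 1698 and 1374 CPM in XCR1, 96.7, 157 and 109 CPM in SIRPa, and 213, 230 and 200 CPM in CD301b. Every CD301b library lay above every SIRPa library. The log2 fold change was 3.71 ± 0.16 (adjusted p = 5.42e-11) for XCR1 against SIRPa, 2.88 ± 0.16 (adjusted p = 7.40e-10) against CD301b and 0.82 ± 0.15 (adjusted p = 0.00350) for CD301b against SIRPa. Per kb of exon, the ratio of Naaa to Ppt1 was 0.769 to 0.855 over the XCR1 libraries, 0.485 to 0.741 in SIRPa and 1.51 to 1.74 in CD301b. CD301b was thus the population in which Naaa exceeded Ppt1 per kb, in each of its 3 libraries.

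Cd8a (chromosome 6, 71373427 to 71379173, plus strand) encodes the CD8 alpha chain, which dendritic cells carry as a homodimer and thymocytes mostly pair with the beta chain encoded by Cd8b1. Cd8a stood at 225, 257 and 263 CPM in XCR1, 97.8, 82.1 and 92.5 CPM in SIRPa, and 121, 113 and 117 CPM in CD301b. XCR1 was highest, and CD301b lay above SIRPa without overlap. This gave a log2 fold change of 1.45 ± 0.11 (adjusted p = 2.37e-09) for XCR1 against SIRPa and 1.09 ± 0.11 (adjusted p = 1.71e-07) against CD301b. Between CD301b and SIRPa it was 0.36 ± 0.11 (adjusted p = 0.0703), which did not pass.

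Cd8b1 did not follow Cd8a. It stood at 10.6, 15.7 and 31.3 CPM in XCR1, 26.3, 16.6 and 26.0 CPM in SIRPa, and 12.1, 19.2 and 25 CPM in CD301b, with overlap between all populations. Its log2 fold change was -0.26 ± 0.36 (adjusted p = 0.700) for XCR1 against SIRPa and 0.03 ± 0.36 (adjusted p = 0.970) against CD301b, and both changed sign when some libraries were left out. Per kb, Cd8a was 8.63, 6.68 and 3.43 times Cd8b1 in XCR1 replicates 1 to 3, 1.52, 2.02 and 1.45 times in SIRPa, and 4.06, 2.40 and 1.90 times in CD301b. The 12 thymocyte genes other than Cd8b1 summed to 212, 164 and 749 CPM in XCR1, so the XCR1 library with the most thymocyte transcript had the highest Cd8b1 and the lowest ratio. In XCR1 replicate 2, with the lowest thymocyte sum of all 9 libraries, Cd8a was 257 CPM. In SIRPa the same sums were 439, 339 and 615 CPM, and in CD301b 235, 438 and 581 CPM. What part of Cd8a in SIRPa and CD301b came with these transcripts was not tested.

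**Figure D2:**
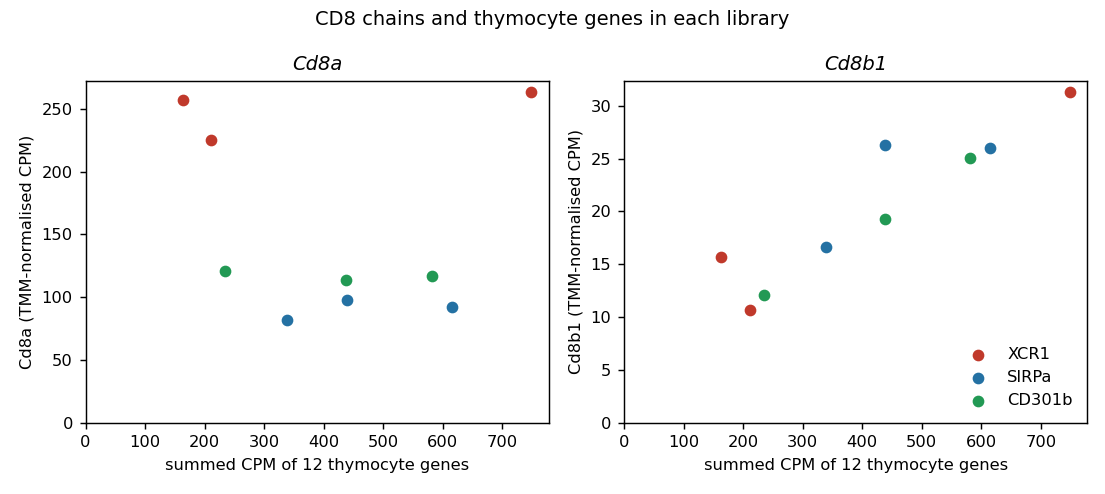
Cd8a (left) and Cd8b1 (right) in TMM-normalised CPM against the summed CPM of 12 thymocyte genes, Cd8b1 not among them; each point is 1 of the 9 libraries, coloured by population. The XCR1 libraries hold 225 to 263 CPM of Cd8a at thymocyte sums from 164 to 749, while the highest Cd8b1 level, 31.3 CPM, is in the library with the highest sum.

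Cd24a (chromosome 10, 43578284 to 43584265, plus strand) encodes heat-stable antigen, a lipid-anchored surface protein used to tell cDC1 from cDC2 and also abundant on thymocytes and B cells. It stood at 413, 415 and 364 CPM in XCR1, 72.7, 88.0 and 71.9 CPM in SIRPa, and 51.8, 59.1 and 62.8 CPM in CD301b. The populations did not overlap. In log2 terms the difference was 2.36 ± 0.12 (adjusted p = 3.73e-12) for XCR1 against SIRPa and 2.78 ± 0.12 (adjusted p = 3.82e-13) against CD301b. For CD301b against SIRPa it was -0.42 ± 0.12 (adjusted p = 0.0435), close to the threshold and lost in 10 of the 15 alternative settings, among them the omission of any single CD301b library other than replicate 4 and of any single SIRPa library (adjusted p = 0.0596 to 0.261). Transcripts of 9 B cell genes summed to 5.18 to 16.6 CPM in XCR1, 46.0 to 79.1 in SIRPa and 22.9 to 27.2 in CD301b, lowest where Cd24a was highest, but higher in SIRPa than in CD301b as Cd24a was. Ms4a1 and Pax5 were at 0 counts in all 3 CD301b libraries. The part of B cells in the Cd24a levels was not tested.

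Gcsam (chromosome 16, 45610380 to 45622867, plus strand), which encodes a signalling adaptor first known from germinal centre B cells, was the closest of the 10 to an on or off pattern. It stood at 153, 146 and 141 CPM in XCR1, at 0.33, 6.02 and 1.60 CPM in SIRPa, and at 0.04, 0 and 0 CPM in CD301b. The XCR1 libraries were close together, the SIRPa libraries spread widely, and CD301b had 1 count in its 3 libraries. The log2 fold change was 5.77 ± 0.79 (adjusted p = 0.00209) for XCR1 against SIRPa. SIRPa replicate 2 held 137 of the 178 counts of SIRPa, and without it the value was 7.25, also past the threshold. The ratio of XCR1 to CD301b was 10177 (exact 95% interval 1826 to 402000, counting error only; 9067 counts against 1), with an adjusted p of 0.000624. The ratio of SIRPa to CD301b was 190 (33.6 to 7535; 178 counts against 1), but the test gave an adjusted p of 0.112. Without SIRPa replicate 2 that ratio was 67.2 (11.4 to 2718; 41 counts against 1). Without SIRPa replicate 1 the adjusted p was 0.00592, and without replicate 2 it was 0.00336. The B cell sum was lower in XCR1 than in SIRPa, the reverse of Gcsam, and higher in SIRPa than in CD301b, as the Gcsam counts were. Ms4a1 and Pax5, at 0 counts in CD301b, passed as higher in XCR1 than in CD301b, as Gcsam did, while Cd79a passed as lower. Pax5 held 79 counts in XCR1 replicate 3 and 0 in XCR1 replicates 1 and 2. Cd79a held 59 counts in CD301b replicate 1 and 0 in CD301b replicates 3 and 4. The calls of Pax5 and Cd79a thus each rest on 1 library. The part of B cells in the Gcsam levels was not tested.

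**Figure D3:**
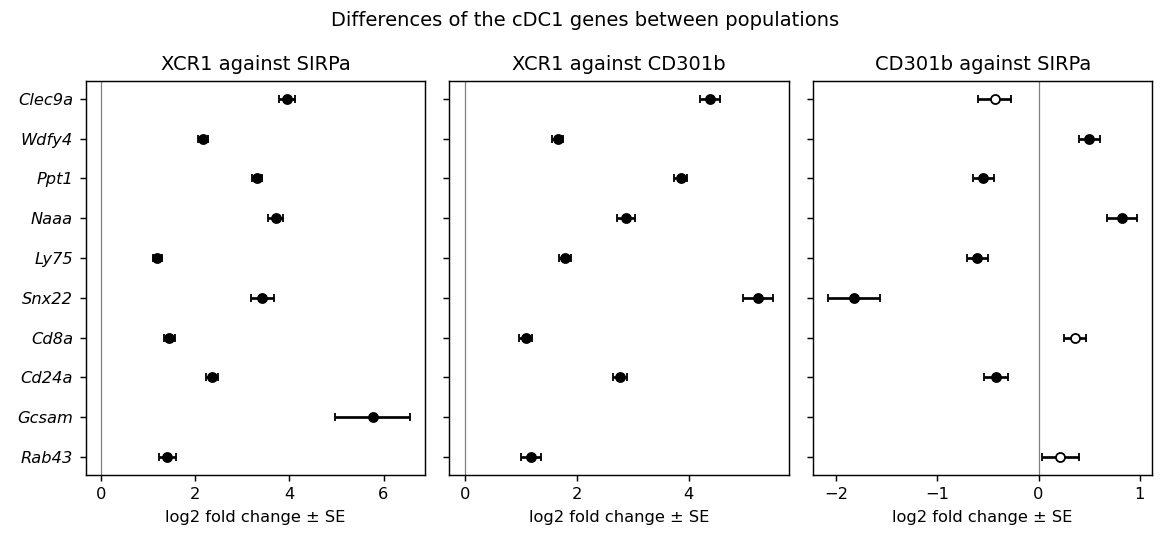
Log2 fold change ± SE of the 10 genes in each comparison from edgeR; filled points passed an adjusted p of 0.05, open points did not, and Gcsam is left out where CD301b, with 1 count, enters. All points against XCR1 are filled and above 0, while between CD301b and SIRPa they run from -1.82 (Snx22) to 0.82 (Naaa).

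Levels of different genes are compared per kb of exon, since longer transcripts yield more reads. In XCR1 they were, from the top, Ppt1 at 516 ± 31.6 CPM per kb, Wdfy4 at 425 ± 42.7, Naaa at 425 ± 48.7, Cd24a at 154 ± 11.3, Cd8a at 68.3 ± 5.65, Ly75 at 63.9 ± 5.85, Clec9a at 56.3 ± 7.99, Gcsam at 42.8 ± 1.66, Snx22 at 32.6 ± 4.64 and Rab43 at 10.2 ± 1.82. Ppt1, Wdfy4 and Naaa ranked 54, 68 and 69 among 53504 genes with a length. Wdfy4 and Naaa did not differ beyond their spread, nor did Cd8a, Ly75 and Clec9a among themselves. The place of Rab43 is uncertain, since its length includes the bases shared with Gm45140. In SIRPa and CD301b Wdfy4 came first, at 95.4 ± 10.2 and 135 ± 14.6 CPM per kb, ahead of Ppt1 (52.0) in SIRPa and of Naaa (57.6) in CD301b. The 10 genes together took 0.878 to 0.982% of all counts in the XCR1 libraries, 0.167 to 0.197% in SIRPa and 0.197 to 0.222% in CD301b.

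The level that remained outside XCR1 differed widely from gene to gene. As a share of the mean XCR1 level, SIRPa held from 1.81 ± 2.03% of Gcsam, 6.45 ± 1.16% of Clec9a, 7.65 ± 2.02% of Naaa, 9.33 ± 2.62% of Snx22 and 10.1 ± 1.16% of Ppt1 up to 36.6 ± 3.21% of Cd8a, 37.9 ± 3.22% of Rab43 and 43.8 ± 0.406% of Ly75. In CD301b the share was 2.65 ± 0.811% for Snx22, 4.77 ± 0.493% for Clec9a and 6.91 ± 0.453% for Ppt1, and 43.9 ± 2.13% for Rab43 and 47.1 ± 1.46% for Cd8a. Xcr1 itself was at 1.25 ± 0.677% in SIRPa and 0.0807 ± 0.0526% in CD301b. In every SIRPa and CD301b library at least 9 of the 10 genes kept a larger share than Xcr1 did, and the exception where there was 1 was Gcsam. SIRPa replicate 2 had the highest Xcr1 share of these 6 libraries (2.04%) and was the highest SIRPa library for 5 of the 10 genes, Wdfy4, Ppt1, Naaa, Cd24a and Gcsam, the last at 4.10% of the XCR1 level. How far cDC1 within the SIRPa sort carried these levels was not tested. How many of all genes were highest in SIRPa replicate 2 was not counted.

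**Figure D4:**
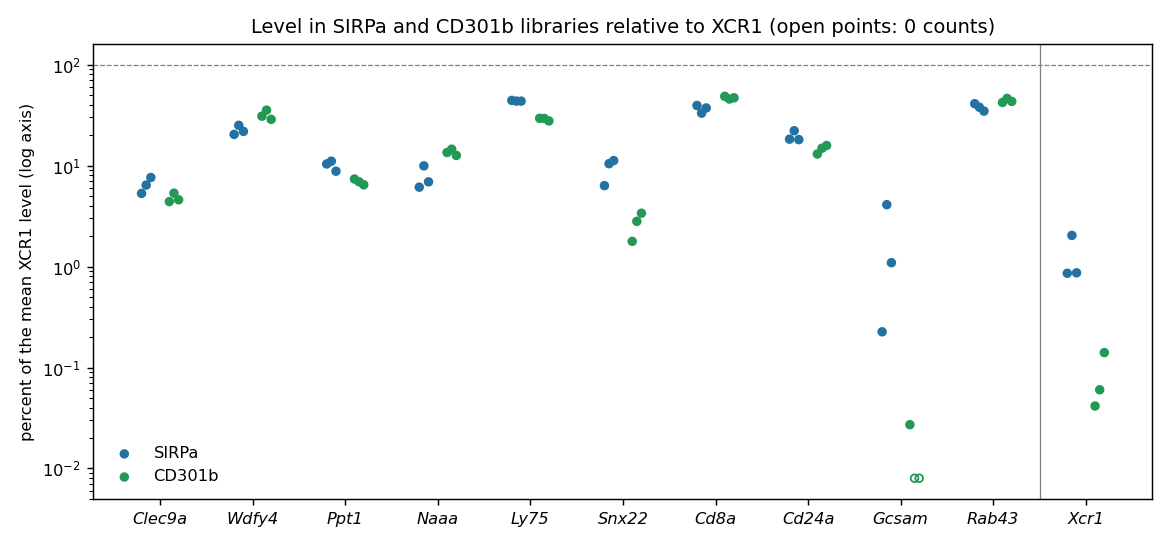
Level in each SIRPa and CD301b library as a percent of the mean XCR1 level, on a log axis, for the 10 genes and, right of the line, Xcr1; open points are libraries with 0 counts. Ly75, Cd8a and Rab43 stay at 27.7% or more in every library, Clec9a lies between 4.40 and 7.62%, and Xcr1 lies at 2.04% or less.

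Across the 9 libraries all 10 genes were highest in the same 3, those of XCR1. As a description over 9 libraries that fall into these 3 groups, Pearson's r of log2 CPM ran from 0.763 (Cd8a with Gcsam) to 0.997 (Wdfy4 with Naaa), with 0.996 for Ppt1 with Cd24a. Among 9465 other genes with a mean of at least 5 CPM, the nearest to Clec9a were Rala (r = 0.994), Lsr (0.993) and Map4k5 (0.991). Those nearest to Ppt1 were Il12b (0.995), Parvg (0.995) and Gusb (0.995), the last a lysosomal glucuronidase outside the lists, at 423 ± 40.7 CPM in XCR1, 144 ± 9.60 in SIRPa and 131 ± 7.34 in CD301b. Il12b, a subunit of interleukin-12, stood at 146 ± 30.6 CPM in XCR1, 18.2 ± 0.832 in SIRPa and 11.3 ± 1.74 in CD301b. Nearest to Ly75 were Id2 (0.999), Rab7b (0.994) and Fzd1 (0.994), and Rab7b stood at 410 ± 38.7, 45.6 ± 5.31 and 17.4 ± 2.43 CPM in the same order. Those nearest to Cd8a were Ppan (0.992), Hist1h3c (0.985) and Itgae (0.984).

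Other markers of cDC1 moved with the 10 genes. Of 11 listed, 10 were higher in XCR1 than in SIRPa (all but Tlr12) and all 11 higher than in CD301b. Of all genes, 10.7% were higher in XCR1 than in SIRPa and 9.12% higher than in CD301b. The median log2 fold changes of the list were 2.35 and 2.76, and it includes Xcr1, the protein the sort is named for. Irf8, the transcription factor of cDC1, stood at 1873 ± 202 CPM in XCR1, 356 ± 49.4 in SIRPa and 174 ± 29.5 in CD301b. Id2, an inhibitor of basic helix-loop-helix factors, stood at 516 ± 70.0, 133 ± 2.22 and 71.6 ± 1.17 CPM in the same order, with log2 fold changes of 1.95 ± 0.11 against SIRPa (adjusted p = 1.71e-11) and 2.85 ± 0.11 against CD301b (adjusted p = 8.06e-14). Itgae, the CD103 integrin chain, took the order of Wdfy4 and Naaa, at 484 ± 46.4 CPM in XCR1, 49.1 ± 6.85 in SIRPa and 71.6 ± 14.0 in CD301b. For CD301b against SIRPa, its log2 fold change was 0.54 ± 0.14 (adjusted p = 0.0234) and that of Irf8 was -1.03 ± 0.13 (adjusted p = 5.73e-05). The Itgae call was lost without CD301b replicate 3 (0.37, adjusted p = 0.170), SIRPa replicate 2 (0.44, adjusted p = 0.171) or SIRPa replicate 3 (0.53, adjusted p = 0.0962).

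Receptors and bridging proteins by which phagocytes bind the phosphatidylserine of dying cells, or scavenge them, went mostly the other way from Clec9a. Of 19 tested, 12 were lower in XCR1 than in SIRPa and the same 12 lower than in CD301b, where 13.9% and 13.5% of all genes were. Their median log2 fold changes were -3.18 and -3.86, also with Cd300lb, which had 0 counts in XCR1, set at its bound. Axl, a receptor tyrosine kinase, stood at 35.7 ± 2.64 CPM in XCR1, 725 ± 65.8 in SIRPa and 519 ± 27.7 in CD301b, or log2 fold changes of -4.34 ± 0.11 against SIRPa (adjusted p = 5.08e-16) and -3.86 ± 0.11 against CD301b (adjusted p = 1.53e-15). Itgb5, an integrin chain, stood at 7.83 ± 1.89, 227 ± 31.6 and 156 ± 3.10 CPM in the same order. Havcr2, Cd36 and Scarb1 were higher in XCR1 than in SIRPa, and Cd36 was higher than in CD301b. Those are 3 and 1 of 19 genes, where 10.7% and 9.12% of all genes were higher, so both counts are near those shares. Scarb1, at an adjusted p of 0.0507 against CD301b, passed there under 6 alternatives, among them without CD301b replicate 3 (0.0451) and without XCR1 replicate 2 (0.0217). Cd36, a scavenger receptor named here after its values were seen, stood at 185 ± 6.53 CPM in XCR1, 8.90 ± 3.63 in SIRPa and 7.48 ± 2.48 in CD301b, with log2 fold changes of 4.37 ± 0.30 against SIRPa (adjusted p = 3.36e-07) and 4.62 ± 0.30 against CD301b (adjusted p = 2.32e-07). Timd4, a phosphatidylserine receptor, was higher in CD301b (60.5 ± 12.6 CPM) than in SIRPa (19.8 ± 6.36 CPM; log2 fold change 1.61 ± 0.28, adjusted p = 0.00160).

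Macrophage transcripts were lower in XCR1, as most of the dead-cell receptor genes were. The 9 listed macrophage genes summed to 89.6 to 112 CPM in XCR1, 2462 to 2862 in SIRPa and 1428 to 1681 in CD301b. Of the 9, 8 were lower in XCR1 than in SIRPa and than in CD301b, where 13.9% and 13.5% of all genes were. C1qa, a complement component and the most abundant of the list, stood at 4.0 ± 5.15, 704 ± 34.9 and 401 ± 20.7 CPM. Between CD301b and SIRPa, 3 of 19 dead-cell receptor genes (Timd4, Havcr2 and Lrp1) were higher in CD301b, against the macrophage sums. Another 2 (Axl and Itgb5) were higher in SIRPa, a count of 0 without SIRPa replicate 1. Of all genes, 2.2% were higher in CD301b and 2.08% in SIRPa. The part of macrophages in the levels of dead-cell receptors, oxidase and lysosomal genes in SIRPa and CD301b was not tested.

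SYK relays the signal of CLEC9A, and the NADPH oxidase acts on the phagosome. Of 11 genes of this list, 6 were lower in XCR1 than in SIRPa and 1 higher, while 6 were lower and 2 higher than in CD301b. Of all genes, 13.9% and 13.5% were lower and 10.7% and 9.12% higher in XCR1 in these comparisons, so the 1 of 11 higher than in SIRPa is near that share. The median log2 fold changes were -0.46 and -0.77. Syk stood at 90.1 ± 8.74 CPM in XCR1, 292 ± 27.6 in SIRPa and 224 ± 5.62 in CD301b, or log2 fold changes of -1.70 ± 0.11 against SIRPa (adjusted p = 2.06e-10) and -1.32 ± 0.11 against CD301b (adjusted p = 9.44e-09). Ncf4, a cytosolic subunit of the oxidase, took the opposite direction, at 86.8 ± 6.50 CPM in XCR1, 38.8 ± 0.642 in SIRPa and 31.9 ± 4.10 in CD301b.

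Genes of endosomal traffic and of escape from the endosome held some of both directions. Of 17 tested, 6 were higher and 3 lower in XCR1 than in SIRPa, and 5 higher and 1 lower than in CD301b, with median log2 fold changes of -0.02 and -0.09. The shares of all genes were 10.7% and 9.12% higher and 13.9% and 13.5% lower, so the genes lower in XCR1 were near or under that share. Mpeg1, which encodes the pore-forming protein perforin-2, stood at 3494 ± 261 CPM in XCR1, 1208 ± 104 in SIRPa and 687 ± 118 in CD301b (log2 fold change 1.53 ± 0.11, adjusted p = 1.06e-09, and 2.35 ± 0.12, adjusted p = 1.82e-12). Rab39, a small GTPase like Rab43, stood at 32.6 ± 4.36, 5.73 ± 0.0808 and 7.12 ± 2.77 CPM. Its log2 fold change was 2.51 ± 0.29 against SIRPa and 2.19 ± 0.29 against CD301b. Rab14, in contrast, was lower in XCR1, at 141 ± 6.57 CPM against 190 ± 9.07 in SIRPa and 207 ± 2.43 in CD301b.

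Peptide loading of class I molecules differed less. Of 9 genes, 5 were higher and 1 (B2m) lower in XCR1 than in SIRPa, and 3 were higher than in CD301b, with median log2 fold changes of 0.33 and 0.28. Of all genes, 10.7% were higher and 13.9% lower in XCR1 than in SIRPa, and 9.12% higher than in CD301b, so the 1 lower of 9 is near that share. The peptide transporter genes led. Tap1 stood at 484 ± 39.3 CPM in XCR1, 278 ± 13.1 in SIRPa and 258 ± 32.2 in CD301b, with log2 fold changes of 0.80 ± 0.11 against SIRPa (adjusted p = 6.51e-06) and 0.91 ± 0.11 against CD301b (adjusted p = 1.29e-06). Tap2 stood at 192 ± 21.5, 98.4 ± 6.22 and 97.1 ± 12 CPM.

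Most of the listed lysosomal genes took the other direction from Ppt1 and Naaa. Of the 16 genes in this list, lysosomal or of lipid breakdown, 12 were lower in XCR1 than in SIRPa and none higher. Against CD301b, 10 were lower in XCR1 and 1 (Ppt2) higher. Over all genes, 13.9% and 13.5% were lower in XCR1 in these comparisons. The share higher in XCR1 than in CD301b was 9.12%, so the 1 of 16 is not above it. The Ppt2 call (adjusted p = 0.0308) was lost in 4 of 15 alternatives. Median log2 fold changes of the list were -1.07 and -0.78. Tpp1, a lysosomal peptidase whose loss, like that of PPT1, causes a neuronal ceroid lipofuscinosis, stood at 7.04 ± 1.40 CPM in XCR1, 91.0 ± 12.6 in SIRPa and 62.5 ± 6.58 in CD301b. Its log2 fold change was -3.69 ± 0.19 (adjusted p = 2.78e-12) against SIRPa and -3.15 ± 0.18 (adjusted p = 2.53e-11) against CD301b. Npc1, a cholesterol exporter, stood at 47.2 ± 5.25, 182 ± 21.2 and 174 ± 6.61 CPM in the same order.

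**Figure D5:**
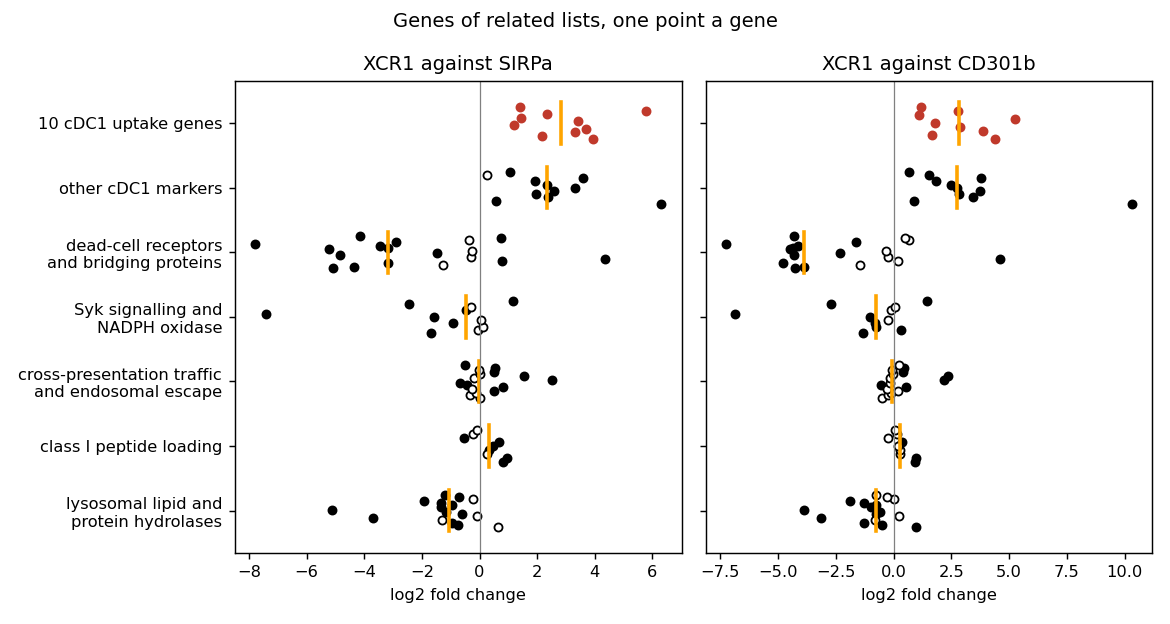
Log2 fold change of each gene (1 point) in 7 lists, for XCR1 against SIRPa and against CD301b; filled points passed an adjusted p of 0.05, orange bars are medians over all tested genes of a list, and genes with 3 counts or fewer in a group are not drawn. The 10 genes and other cDC1 markers lie right of 0 (medians 2.83 and 2.35 against SIRPa), and dead-cell receptors and lysosomal genes mostly left of it (-3.18 and -1.07).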

How the data were processed

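Thymi were digested, stained and sorted, and libraries were made with a Clontech stranded total RNA kit and sequenced on a NextSeq, per the labels' protocols. Per the submitters' processing notes, FastQC, Trimmomatic, HISAT2, SAMtools, featureCounts of Subread and edgeR were used with build mm10; their versions, the annotation and the strand setting were not given in the sources used here. The deposited table holds raw read counts per gene symbol, as whole numbers, and a deposited table of log2 CPM was not used. In the counts, 24 symbols had been turned into dates (0.125 to 0.187% of counts) and were left out.

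Genes were kept with filterByExpr (minimum count 10), libraries scaled by TMM, and the 3 populations compared by the two-sided quasi-likelihood test of edgeR in a model of all 9 libraries, with Benjamini-Hochberg adjustment over the 15417 genes of each comparison. Software was edgeR 4.0.16 and limma 3.58.1 in R 4.3.3, and DESeq2 1.42.0 for alternatives. The fit was also run on simulated counts with the same spread for every gene and changes set only in well-covered genes. That run does not speak to genes with few or uneven counts. Exon lengths and positions are from GENCODE M21 (GRCm38, the build mm10), where 53504 of 55302 symbols (96.7%) matched 1 gene; promoters are from RefSeq.

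The genes and lists were chosen with earlier results of these data known. The text names all 10 genes, Xcr1, Sirpa, Mgl2 and Cd8b1, some of those ranked by adjusted p among the first 3 called in each related list, the most abundant gene of the other cell type lists where it is used, and the 3 genes nearest to Clec9a, Ppt1, Cd8a and Ly75. Some genes that the rule takes are not reported here. Genes listed as members of a count or at 0 are named for that reason. Replicates of a population differed by more than counting noise (chi-square per degree of freedom 18.2 to 53.3), so none was counted as a copy. Reads carry no stated molecular identifiers, so intervals and floors cover counting error only. Alternatives were size factors of DESeq2, no filter on low counts, the DESeq2 test, limma-voom, the replicate number as a block, only the 6 libraries compared, and leaving out each library.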

Additional observations from a re-analysis of the deposited data

How the results depend on the processing

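In both comparisons with XCR1 all 10 genes stayed higher in XCR1 under all 15 alternatives, 9 of which leave out 1 library. For CD301b against SIRPa, 6 genes passed, with 8 under DESeq2, 5 under limma-voom and 5 to 6 when a library was left out. Cd24a was lost under limma-voom (adjusted p = 0.0784), and Cd8a passed under DESeq2 (0.0464; highest elsewhere 0.356), as did Gcsam (0.000106). Gcsam ranged up to 0.440 and was not tested in the model of the 6 libraries of CD301b and SIRPa alone. Of the related lists, 59, 52 and 18 genes passed for XCR1 against SIRPa, XCR1 against CD301b and CD301b against SIRPa. When a library was left out these were 55 to 61, 48 to 53 and 13 to 24, and limma-voom gave 32 in the last. From cDC1 markers to lysosomal genes, the lists held 11, 19, 11, 17, 9 and 16 tested genes. Of all genes, 10.7% were higher and 13.9% lower in XCR1 than in SIRPa, and 9.12% and 13.5% than in CD301b. Between CD301b and SIRPa, 2.2% were higher in CD301b and 2.08% in SIRPa. For class I loading, 3 genes were higher in XCR1 than in CD301b, and 6 without XCR1 replicate 3. Traffic genes higher in XCR1 than in CD301b fell from 5 to 3 without XCR1 replicate 2, and Ppt2 lost its call without CD301b replicate 3 or XCR1 replicate 2 or 3. Over all genes, 339 were higher in CD301b than in SIRPa and 321 higher in SIRPa; the first count was 180 and the second 148 without SIRPa replicate 1, and the first was 221, 222 and 198 without CD301b replicate 3, SIRPa replicate 2 and SIRPa replicate 3. Xcr1 in CD301b against SIRPa did not pass without CD301b replicate 1 (adjusted p = 0.0557) or 3 (0.0691). The log2 fold change of Cd8b1, called in no setting, changed sign for XCR1 against SIRPa without XCR1 replicate 1 (0.034; range over omissions -0.80 to 0.034), and against CD301b under limma-voom (-0.015), without CD301b replicate 1 (-0.18) and without XCR1 replicate 3 (-0.51; range over omissions -0.51 to 0.32). Deviations of same-numbered libraries had r of 0.00305 to 0.0413, all above 0 but under 0.1, and those of other pairs -0.0672 to 0.0481. Values this small cannot show whether the numbers mark pairs. Nothing in the labels says so, and the numbers were not taken as pairs. With the replicate number as a block, 10, 10 and 5 of the genes passed in the 3 comparisons (Cd24a at an adjusted p of 0.0662). Of the other differences followed gene by gene, Itgae (CD301b against SIRPa), Scarb1 and Ppt2 (XCR1 against CD301b) crossed the threshold in some settings. Some named differences, among them those of Ms4a1, Pax5 and Cd79a, were not followed in this way. Without SIRPa replicate 1, Axl and Itgb5 were no longer called higher in SIRPa than in CD301b. The cause of these shifts was not tested. Depth limits Gcsam in CD301b, where 1 count was found.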
